A study of Mus musculus with 21 samples.

Results

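The genes described here are 7 that mark or build definitive endoderm, the inner germ layer that forms the gut tube, liver, pancreas and lungs: Sox17, Foxa1, Foxa2, Cer1, Trh, Hhex and Cxcr4. They were taken by name, with every probe set that the platform annotation assigns to them, which gave 9 probe sets of 45101 on the array and 7 genes of 18193 that could be represented by a probe set of a single gene. Sox17 has 2 probe sets, 1429177_x_at and 1421657_a_at, and so has Cer1, the dimmer 1450256_at and the brighter 1450257_at. The other 5 genes have 1 each: 1418496_at for Foxa1, 1422833_at for Foxa2, 1418756_at for Trh, 1423319_at for Hhex and 1448710_at for Cxcr4. Transcript levels were measured on 21 Affymetrix arrays in CGR8 mouse embryonic stem cells, an established line, and in embryoid bodies made from them, in 7 groups of 3 samples that the labels call biological replicates. The groups are embryoid bodies at days 2, 3 and 5 in 20% IMDM medium with ascorbic acid (100 µM), the same without ascorbic acid (control), and undifferentiated stem cells at day 0 in 10% GMEM. Embryoid bodies are aggregates in which stem cells begin to form germ layers, and here they started as hanging drops of 500 cells in 25 µL and went to a shaker after day 2. The submitters used only experiments in which, on later days, more aggregates beat with ascorbic acid than without, so the arrays are a selected set, and the step to day 2 coincides with the change of medium. Nothing says how the replicates of a group were separated, so each p-value sets a difference against the spread between these samples. In the unpaired fit this spread is pooled over the 7 groups.

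Definitive endoderm arises at gastrulation from the anterior primitive streak, where strong Nodal signalling through Foxh1 and the Smads turns on Eomes, Mixl1 and Gsc in a precursor shared with anterior mesoderm. Foxa2 and Foxa1 are forkhead factors that open closed chromatin at gut and liver genes, Sox17 is an HMG-box factor required for definitive endoderm, and Hhex is a homeobox factor of anterior endoderm, liver and thyroid. Cer1 is a secreted inhibitor of Nodal and BMP made by anterior endoderm. Trh encodes the precursor of thyrotropin-releasing hormone and marks early endoderm in the mouse embryo, and Cxcr4 is the receptor of the chemokine Cxcl12. None of the 7 is confined to definitive endoderm: Sox17, Foxa2, Cer1 and Hhex are also known in extraembryonic endoderm, Sox17, Hhex and Cxcr4 in blood vessels or their precursors, and Cxcr4 in mesoderm.

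Levels are given as log2 signal, on which 1 unit corresponds to a 2-fold change, and errors of differences are standard errors of a limma fit with n = 3 arrays a group. A probe set was called where its p, adjusted by Benjamini-Hochberg across 45037 probe sets, was under 0.05. A fold is given only where both group means are above 5, since dimmer values are not shown to exceed background. In whole aggregates, fewer cells of a type and less RNA per cell cannot be told apart.

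The calls of the 7 genes fell on different days. From day 2 to day 3, Trh rose in both arms, Foxa2 rose with ascorbic acid and 1 of the 2 probe sets of Cer1 rose in control. By day 5, Sox17, Foxa1, Hhex and Cxcr4 rose over day 3 and Trh fell in both arms. Between the arms, 0 of the 9 probe sets were called at day 2, day 3 or day 5 in the unpaired fit. Of all probe sets, 0.00444%, 0.00222% and 0.0688% were called on these days. Hhex at day 5 was called in a paired fit, which called 0.615% of all probe sets on that day. The pairing was inferred from these same data, and 1 of 3 settings that left out a day 5 pair kept the Hhex call. The plot of every probe set on every array shows the levels on each day and in each arm.

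**Figure D1:**
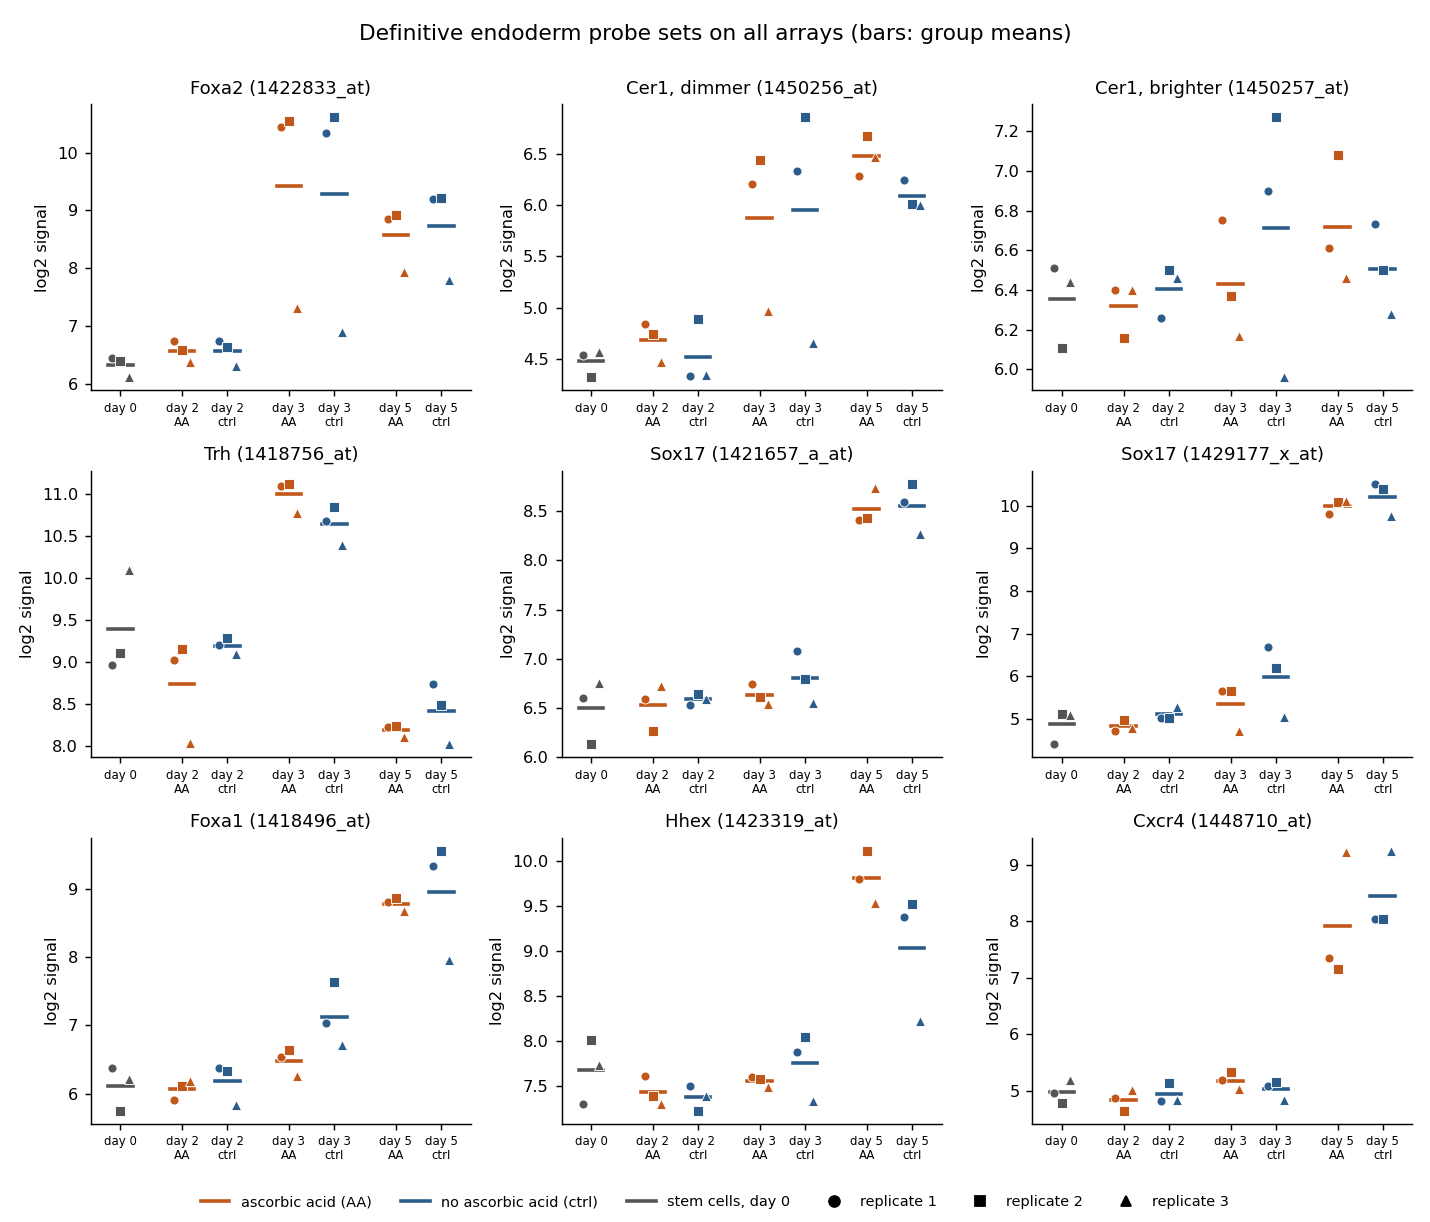
Log2 signal (vertical axes, each with its own scale) of the 9 probe sets on the 21 arrays, by day and treatment (horizontal axes). Points are arrays, with a shape for each replicate number, and bars are group means. Foxa2 had its highest values at day 3 in replicates 1 and 2 of both arms and stayed low in replicate 3, whereas Sox17, Foxa1, Hhex and Cxcr4 had their highest means at day 5.

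No step of a member was called before day 3. From day 0 to day 2, 0 of the 9 probe sets were called in either arm, against 5.31% of all probe sets that rose and 4.42% that fell with ascorbic acid, and 3.44% that rose and 5.08% that fell in control. At an unadjusted p under 0.05, 9508 of all 45037 probe sets passed with ascorbic acid and 9571 in control. Of the 9 member probe sets, 1 passed with ascorbic acid (Trh) and 0 in control. The largest of these differences was that of Trh with ascorbic acid, -0.65 ± 0.27 (adjusted p = 0.153), and without day 0 replicate 1 it was called (-0.87, adjusted p = 0.0447). Trh was already at 8.96, 9.11 and 10.09 in stem cells, with replicate 3 standing about 1 unit above the other two. Stem cells had 7.30, 8.01 and 7.73 for Hhex, 6.38, 5.75 and 6.21 for Foxa1, and 4.97, 4.79 and 5.20 for Cxcr4. For the probe sets of Cer1 the stem cell values were 4.32 to 4.57 and 6.11 to 6.51, and for those of Sox17 they were 4.41 to 5.12 (x_at) and 6.13 to 6.75 (a_at). Cxcr4, one probe set of Cer1 and the x_at probe set of Sox17 were thus near or below the level of 5 in stem cells.

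The promoters of Foxa2, Cer1 and Trh are shown because these are the genes with a call at day 3 in at least 1 arm. Each sequence is the 250 bases before the RefSeq start of the gene (GRCm38.p6), 5′ to 3′ on the gene's strand, which is the minus strand for all 3: chr2:148046970-148047219 for Foxa2, chr4:82885152-82885401 for Cer1 and chr6:92244651-92244900 for Trh. Capitals mark exact matches on either strand to any of 7 motifs, which are AGATAA of GATA factors, TCACACC of T-box factors, AATCCACA of Foxh1, TGTTTAC of forkhead factors, ATTGTT of Sox factors, CCAAT of the CCAAT box and TATAAA of the TATA box.
Foxa2: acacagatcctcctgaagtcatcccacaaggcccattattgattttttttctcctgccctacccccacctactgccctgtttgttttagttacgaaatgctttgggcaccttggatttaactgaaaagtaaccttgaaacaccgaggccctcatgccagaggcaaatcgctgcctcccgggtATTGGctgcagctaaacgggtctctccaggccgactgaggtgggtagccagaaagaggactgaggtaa
Cer1: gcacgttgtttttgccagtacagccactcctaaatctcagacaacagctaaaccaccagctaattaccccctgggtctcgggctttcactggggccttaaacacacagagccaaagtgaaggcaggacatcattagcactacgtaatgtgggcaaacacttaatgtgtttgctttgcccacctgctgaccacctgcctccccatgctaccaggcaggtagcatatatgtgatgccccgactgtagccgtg
Trh: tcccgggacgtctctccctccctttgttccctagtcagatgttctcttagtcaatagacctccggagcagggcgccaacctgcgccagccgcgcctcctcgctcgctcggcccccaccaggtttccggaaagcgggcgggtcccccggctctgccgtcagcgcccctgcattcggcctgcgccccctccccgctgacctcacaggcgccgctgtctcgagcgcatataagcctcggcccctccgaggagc
Among 32851 promoters of the same length, AGATAA was found in 9.99%, TCACACC in 3.33%, AATCCACA in 0.718%, TGTTTAC in 3.17%, ATTGTT in 9.42%, CCAAT in 33.8% and TATAAA in 12.4%. Foxa2 held CCAAT on the opposite strand, 68 to 64 bases before its start, and Cer1 and Trh held none of the 7. Foxa2 has 2 further RefSeq starts, and the window before the one listed last held AGATAA and TATAAA. The windows also differ in composition: G and C made up 68.8% of the Trh window with 25 CpG, against 50.8% with 6 CpG in Foxa2 and 51.6% with 5 CpG in Cer1. Sequences from RefSeq were matched for 6 of the 7 genes, not for Sox17.

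Foxa2 had the largest difference from day 2 to day 3 of the 9 probe sets in both arms. In stem cells at day 0 its signal was 6.46, 6.40 and 6.12. With ascorbic acid it was 6.74, 6.60 and 6.38 at day 2, 10.44, 10.54 and 7.31 at day 3, and 8.86, 8.92 and 7.93 at day 5 (replicates 1, 2 and 3). In control it was 6.75, 6.64 and 6.31 at day 2, 10.34, 10.61 and 6.90 at day 3, and 9.20, 9.21 and 7.80 at day 5. All day 3 arrays lay above all day 2 arrays, but replicate 3 of day 3 was over 3 units below the others in both arms. From day 2 to day 3 Foxa2 rose with ascorbic acid by 2.86 ± 0.77 (7.24-fold, adjusted p = 0.0486), and the control difference of 2.72 ± 0.77 (6.57-fold) missed the threshold (adjusted p = 0.0571). Both values sit at the edge: 11 of 28 alternatives called the step with ascorbic acid (adjusted p from 2.27e-06 to 0.286) and 7 of 28 the control step (2.09e-06 to 0.33).

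Trh, the hormone precursor, came up at day 3 in all replicates. With ascorbic acid it had 9.02, 9.15 and 8.03 at day 2, 11.10, 11.12 and 10.77 at day 3, and 8.22, 8.23 and 8.10 at day 5. In control it had 9.20, 9.28 and 9.09 at day 2, 10.68, 10.85 and 10.39 at day 3, and 8.73, 8.48 and 8.02 at day 5. The day 3 arrays stood above every other array of both arms and above the stem cells, with replicate 3 less than 0.5 units below the others. From day 2 to day 3 Trh rose by 2.26 ± 0.27 with ascorbic acid (4.80-fold, adjusted p = 0.000418) and by 1.45 ± 0.27 in control (2.73-fold, adjusted p = 0.00578). The control call was lost in 1 of 28 alternatives, without day 3 control replicate 2 (adjusted p = 0.0549). By day 5 it fell by 2.81 ± 0.27 with ascorbic acid (7.03-fold, adjusted p = 3.23e-07) and fell by 2.23 ± 0.27 in control (4.69-fold, adjusted p = 7.02e-06).

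The probe sets of Cer1 differed. On the dimmer one, the arrays with ascorbic acid had 4.84, 4.74 and 4.47 at day 2, 6.21, 6.44 and 4.97 at day 3, and 6.29, 6.68 and 6.47 at day 5. Control arrays had 4.33, 4.89 and 4.34 at day 2, 6.33, 6.86 and 4.66 at day 3, and 6.25, 6.01 and 6.0 at day 5. As for Foxa2, replicate 3 of day 3 stayed near the day 2 level in both arms, but by day 5 all 3 replicates were up. In control, the dimmer probe set of Cer1 rose by 1.43 ± 0.39 from day 2 to day 3 (adjusted p = 0.0471, called in 9 of 27 alternatives with adjusted p from 4.44e-06 to 0.316), with overlapping ranges. With ascorbic acid the difference was 1.19 ± 0.39 (adjusted p = 0.114) and the ranges did not overlap. The brighter probe set spanned only 5.96 to 7.27 over all arrays and was called in no step, so the rise of Cer1 rests on 1 of its 2 probe sets.

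Over the step to day 3, 2 of the 9 probe sets rose with ascorbic acid (Foxa2 and Trh) and 2 in control (Trh and the dimmer probe set of Cer1), and 0 fell in either arm. Of all probe sets, 1.99% rose and 0.953% fell with ascorbic acid, and 2.85% rose and 0.497% fell in control. The median difference of the 9 was 0.41 with ascorbic acid and 0.87 in control, beside medians of -0.01 and -0.04 over all probe sets. Foxa1 stood at 0.41 ± 0.30 with ascorbic acid (adjusted p = 0.629) and 0.95 ± 0.30 in control (adjusted p = 0.0908), and Sox17, Hhex and Cxcr4 were not called. The plot of the steps between days sets both steps side by side.

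**Figure D2:**
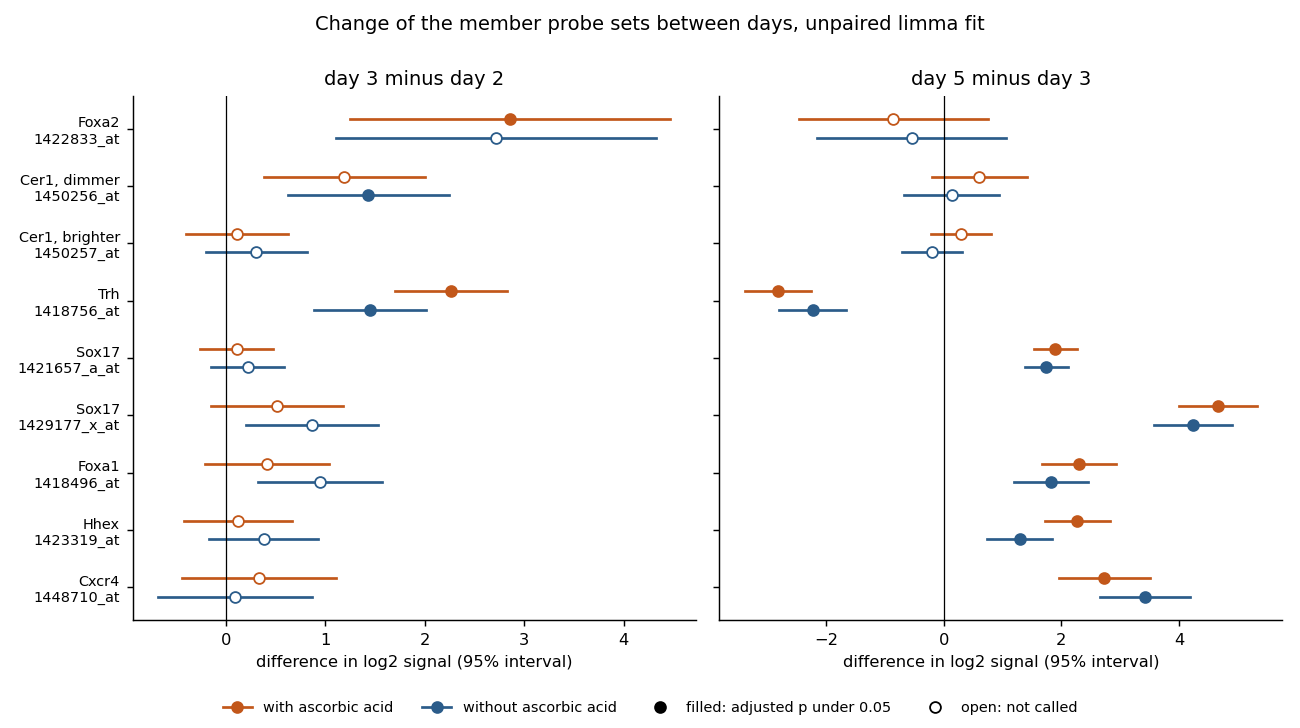
Difference in log2 signal between successive days (horizontal axes, points with 95% intervals) for each probe set (vertical axis), with ascorbic acid above control. Filled points passed an adjusted p under 0.05. In the left panel Foxa2 and Trh with ascorbic acid and the dimmer Cer1 probe set and Trh in control are filled, and in the right panel Sox17, Foxa1, Hhex and Cxcr4 lie to the right of 0 and Trh to the left.

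The low signal in replicate 3 of day 3 was also seen in several streak genes. Lhx1, a LIM-homeobox factor of the anterior streak and the gene whose signal tracked Foxa2 most closely over the 21 arrays (Pearson r = 0.951), had 8.24, 8.80 and 4.88 with ascorbic acid and 8.93, 9.83 and 4.56 in control at day 3. Gsc, a homeobox factor of the organizer, had 7.70, 8.19 and 4.86 with ascorbic acid and 8.59, 8.75 and 5.22 in control. Mixl1, a streak homeobox factor, had 10.36, 10.84 and 7.04 with ascorbic acid and 10.93, 10.86 and 7.21 in control. In each of these genes, replicate 3 lay over 2 units below the other replicates in both arms. For Lhx1 this is already part of its r with Foxa2 over the same arrays. Eomes, the T-box factor at the head of the endoderm program, was lower in replicate 3 by a smaller margin (12.27, 12.20 and 10.78 with ascorbic acid, 12.49, 12.36 and 10.85 in control). Nodal, the ligand, had its highest day 3 values in replicate 3 (10.49 with ascorbic acid and 10.75 in control). Tdgf1, its co-receptor, ran from 11.46 to 11.64 with ascorbic acid and from 11.68 to 11.99 in control, as the plot of day 3 arrays shows. The day 3 arrays of replicate 3 also lay nearer to day 2 on the first principal component, which carried 54.6% of the variance, at -18.9 with ascorbic acid and -18.3 in control, against -6.1 to -2.19 for the other day 3 arrays and -40.5 to -25.6 for day 2.

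**Figure D3:**
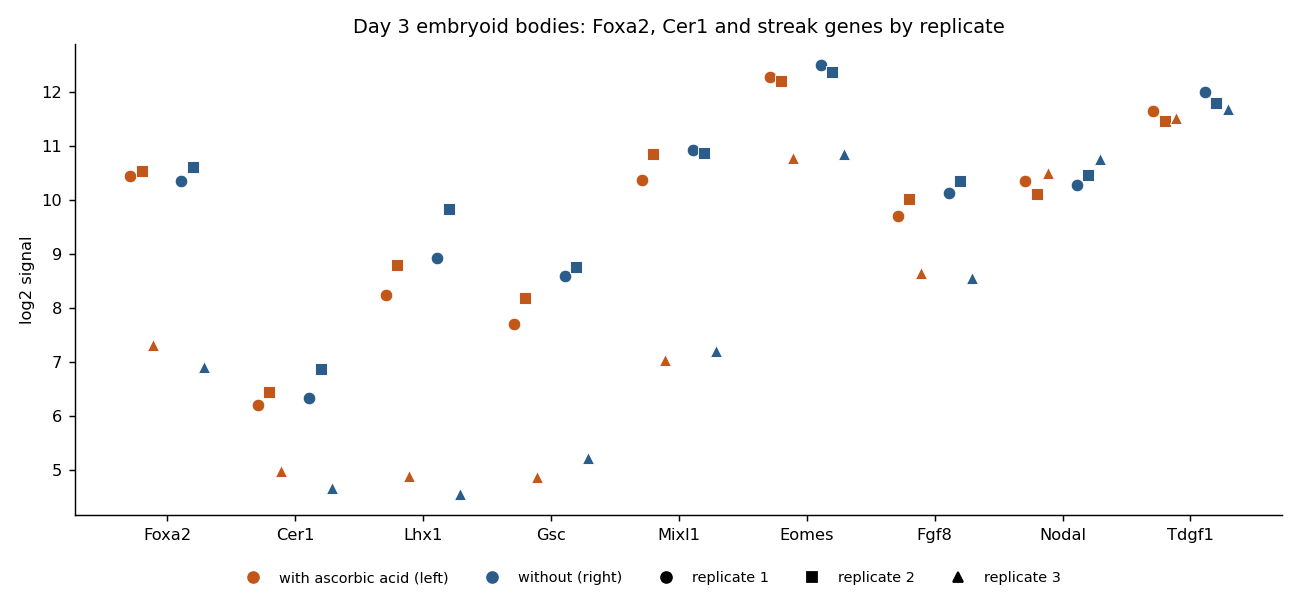
Log2 signal (vertical axis) of Foxa2, Cer1 (dimmer probe set) and 7 streak genes (horizontal axis) on the 6 day 3 arrays, with ascorbic acid on the left and control on the right of each gene. Shapes give the replicate number. Replicate 3 lies below replicates 1 and 2 in both arms for Foxa2, Cer1, Lhx1, Gsc, Mixl1, Eomes and Fgf8, and not for Nodal.

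With replicate 3 of day 3 left out in both arms, a setting chosen after its values were seen, Foxa2 had a control step to day 3 of 3.91 (adjusted p = 2.09e-06). Over the next step it fell by 1.92 with ascorbic acid (adjusted p = 0.000911) and fell by 1.74 in control (adjusted p = 0.00217). With all arrays these falls were -0.86 ± 0.77 with ascorbic acid and -0.55 ± 0.77 in control, and neither passed. The same setting called the dimmer probe set of Cer1 at day 3 with ascorbic acid (1.64, adjusted p = 8.1e-05) and the x_at probe set of Sox17 in control (1.33, adjusted p = 0.00272). The range of these adjusted p values over all alternatives reached 0.902 and 0.995 for the Foxa2 falls, 0.478 for Cer1 and 0.454 for Sox17.

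Of 14 genes of the Nodal pathway and streak that act upstream of endoderm, 4 rose and 0 fell from day 2 to day 3 with ascorbic acid (Eomes, Wnt3, Smad3 and Acvr2b), and 4 rose and 0 fell in control (Eomes, Gsc, Mixl1 and Acvr2b). Eomes rose by 4.64 ± 0.43 with ascorbic acid (24.9-fold, adjusted p = 1.18e-05) and by 4.17 ± 0.43 in control (18-fold, adjusted p = 3.61e-05). From day 3 to day 5, 6 of the 14 fell and 1 rose with ascorbic acid, and 8 fell and 1 rose in control. Nodal fell by 3.48 ± 0.21 with ascorbic acid (adjusted p = 2.65e-10) and fell by 3.73 ± 0.21 in control (adjusted p = 9.28e-11). Tdgf1 fell by 5.38 ± 0.25 with ascorbic acid (adjusted p = 4.19e-12) and fell by 5.62 ± 0.25 in control (adjusted p = 2.17e-12).

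Day 5 brought the other 4 genes. From day 3 to day 5, 5 of the 9 probe sets rose and 1 fell in each arm, and by gene these were Sox17 (both probe sets), Foxa1, Hhex and Cxcr4 up and Trh down. Of all probe sets, 6.73% rose and 6.3% fell with ascorbic acid, and 6.76% rose and 6.45% fell in control. The median difference of the 9 was 1.90 with ascorbic acid and 1.29 in control, beside -0.02 over all probe sets in each arm. All 6 calls held in all 28 or 29 alternatives of both arms, with a highest adjusted p of 0.0228, for Hhex in control.

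Sox17 moved late and in all replicates. Its x_at probe set, whose probes may also match other sequences, had 4.71, 4.97 and 4.79 at day 2, 5.66, 5.65 and 4.71 at day 3, and 9.80, 10.09 and 10.10 at day 5 with ascorbic acid. In control it had 5.03, 5.02 and 5.29 at day 2, 6.69, 6.20 and 5.05 at day 3, and 10.51, 10.38 and 9.75 at day 5. From day 3 to day 5 this probe set rose by 4.66 ± 0.32 with ascorbic acid (25.2-fold, adjusted p = 2.4e-09) and by 4.23 ± 0.32 in control (18.8-fold, adjusted p = 9.66e-09). The day 3 means were 5.34 with ascorbic acid and 5.98 in control, not far above 5. The a_at probe set of Sox17, shared by transcripts of the gene, stood at 8.41, 8.43 and 8.74 at day 5 with ascorbic acid and at 8.60, 8.78 and 8.27 in control, and at 6.13 to 7.08 on all earlier arrays. It rose by 1.90 ± 0.18 with ascorbic acid (3.72-fold, adjusted p = 2.05e-07) and by 1.74 ± 0.18 in control (3.35-fold, adjusted p = 6.06e-07), so both probe sets gave the same direction with different sizes.

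Foxa1 followed the same course as Sox17, with r = 0.953 between them over the 21 arrays, which share their 7 groups and so mainly the day 5 rise. With ascorbic acid Foxa1 had 5.91, 6.11 and 6.18 at day 2, 6.54, 6.64 and 6.26 at day 3, and 8.81, 8.86 and 8.68 at day 5. In control it had 6.38, 6.33 and 5.83 at day 2, 7.03, 7.63 and 6.72 at day 3, and 9.33, 9.56 and 7.96 at day 5, where replicate 3 lay below the whole ascorbic acid group. It rose from day 3 to day 5 by 2.30 ± 0.30 with ascorbic acid (4.94-fold, adjusted p = 1.66e-05) and by 1.82 ± 0.30 in control (3.54-fold, adjusted p = 0.000236). Foxa1 had its highest group means at day 5 and its relative Foxa2 at day 3, and r between the pair was 0.538.

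The promoters of Hhex and Cxcr4, the members with the largest differences between arms at day 5, are the 250 bases before the RefSeq start (GRCm38.p6, 5′ to 3′ on the gene's strand, capitals as above): chr19:37434591-37434840 on the plus strand for Hhex and chr1:128592300-128592549 on the minus strand for Cxcr4.
Hhex: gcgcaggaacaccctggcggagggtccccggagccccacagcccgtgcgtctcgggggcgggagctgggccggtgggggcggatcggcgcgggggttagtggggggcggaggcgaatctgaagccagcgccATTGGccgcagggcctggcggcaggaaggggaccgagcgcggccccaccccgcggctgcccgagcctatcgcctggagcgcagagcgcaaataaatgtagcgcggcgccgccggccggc
Cxcr4: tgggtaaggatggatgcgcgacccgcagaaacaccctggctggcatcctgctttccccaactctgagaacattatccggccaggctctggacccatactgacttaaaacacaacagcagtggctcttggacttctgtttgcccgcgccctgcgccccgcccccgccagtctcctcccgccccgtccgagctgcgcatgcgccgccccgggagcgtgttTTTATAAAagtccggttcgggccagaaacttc
Hhex held CCAAT on the opposite strand, 119 to 115 bases before its start, in a window of 76% G and C with 32 CpG. Cxcr4 held TATAAA on both strands in overlapping matches, 30 to 25 bases before its start on its own strand, in a window of 61.2% G and C with 19 CpG. The Foxa1 window held TGTTTAC on the opposite strand, 141 to 135 bases before a start that lies within the RefSeq gene, and CCAAT. The GATA, T-box, Foxh1 and Sox letters were in none of the windows before the main starts of the 6 genes.

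Cxcr4, the chemokine receptor, was split by replicate at day 5. With ascorbic acid it had 4.88, 4.65 and 5.02 at day 2, 5.19, 5.33 and 5.03 at day 3, and 7.35, 7.16 and 9.23 at day 5. In control it had 4.83, 5.14 and 4.85 at day 2, 5.09, 5.16 and 4.84 at day 3, and 8.05, 8.05 and 9.25 at day 5. Replicate 3, the lowest of its arm at day 5 for Foxa2, Foxa1 and Hhex, was the highest for Cxcr4 in both arms. Cxcr4 rose from day 3 to day 5 by 2.73 ± 0.37 with ascorbic acid (6.63-fold, adjusted p = 2.73e-05). In control it rose by 3.42 ± 0.37 (10.7-fold, adjusted p = 1.59e-06). Both folds are uncertain, since the day 3 means were 5.18 with ascorbic acid and 5.03 in control, barely above 5. The genes most like it over the 21 arrays were Foxf1, a forkhead factor of lateral mesoderm (r = 0.984), Hoxb6 (r = 0.981) and Msx2 (r = 0.978). Replicate 3 was the highest for Foxf1 as well, with 9.50, 9.34 and 11.10 with ascorbic acid and 10.28, 10.51 and 11.19 in control at day 5. Foxf1 was picked for its likeness on these same arrays, so its match in replicate 3 is not a separate observation.

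The ligand of Cxcr4 moved the other way. From day 3 to day 5 Cxcl12 fell by 2.34 ± 0.43 with ascorbic acid (5.06-fold, adjusted p = 0.000786) and fell by 1.87 ± 0.43 in control (3.66-fold, adjusted p = 0.00528). Ackr3, the scavenger receptor of the same ligand, rose by 3.73 ± 0.55 with ascorbic acid (adjusted p = 7.66e-05) and by 4.54 ± 0.55 in control (adjusted p = 7.31e-06). Of the 11 measured ligands, receptors and relatives of the members, 4 rose and 1 fell with ascorbic acid and 3 rose and 1 fell in control over this step. The receptors of the Trh peptide had nearly level signals: Trhr had group means of 3.67 to 3.83 and Trhr2 of 6.94 to 7.13 in all 7 groups. Trhr lay below the level of 5 throughout, so its signal is not shown to exceed background.

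Hhex, the homeobox factor, and 1 probe set of Cer1 had arms that did not overlap at day 5. The share of all probe sets without such overlap was not counted, so it is not known how common this is. With ascorbic acid Hhex had 7.61, 7.38 and 7.30 at day 2, 7.60, 7.57 and 7.48 at day 3, and 9.80, 10.12 and 9.54 at day 5. In control it had 7.50, 7.22 and 7.39 at day 2, 7.88, 8.04 and 7.33 at day 3, and 9.38, 9.52 and 8.22 at day 5. From day 3 to day 5 Hhex rose by 2.27 ± 0.26 with ascorbic acid (4.82-fold, adjusted p = 3.75e-06) and by 1.29 ± 0.26 in control (2.45-fold, adjusted p = 0.00179). The difference between arms at day 5 was 0.78 ± 0.26 (1.72-fold, 95% interval 0.23 to 1.33), higher with ascorbic acid in 3 of 3 pairs of the same replicate number, by 0.42, 0.60 and 1.32. Over all probe sets the unpaired fit did not call it (adjusted p = 1). The paired fit, in which arrays of the same day and number form blocks, did (SE 0.15, adjusted p = 0.0201). Of all probe sets, 0.0688% were called at day 5 in the unpaired fit and 0.615% in the paired one. Without day 5 pair 1 the paired difference was 0.96 (adjusted p = 0.0332), without pair 2 it was 0.87 (adjusted p = 0.0713) and without pair 3 it was 0.51 (adjusted p = 0.246), so 1 of these 3 settings kept the call. Over all 32 alternatives the value ran from 0.37 to 1.02.

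The other day 5 differences between arms were not called in either fit with all arrays. Cxcr4 had -0.54 ± 0.37 (95% interval -1.31 to 0.24, adjusted p = 1, and 0.217 in the paired fit), from pair differences of -0.70, -0.89 and -0.02. Without pair 3, in which the arms were nearly equal, the paired fit called it lower with ascorbic acid (-0.80, adjusted p = 0.0309), the 1 call in 32 alternatives. The dimmer probe set of Cer1 did not overlap between arms, at 6.29, 6.68 and 6.47 with ascorbic acid and 6.25, 6.01 and 6.0 in control, with a difference of 0.39 ± 0.39 (adjusted p = 1). Foxa2 had -0.17 ± 0.77 (95% interval -1.77 to 1.44) in the unpaired fit. This error pools all groups, and at day 3 the SD of Foxa2 was 1.84 with ascorbic acid and 2.07 in control. The standard error of Foxa2 was 0.118 in the paired fit (adjusted p = 0.908), with pair differences of -0.34, -0.29 and 0.13. The a_at probe set of Sox17 had -0.02 ± 0.18 (95% interval -0.39 to 0.34).

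**Figure D4:**
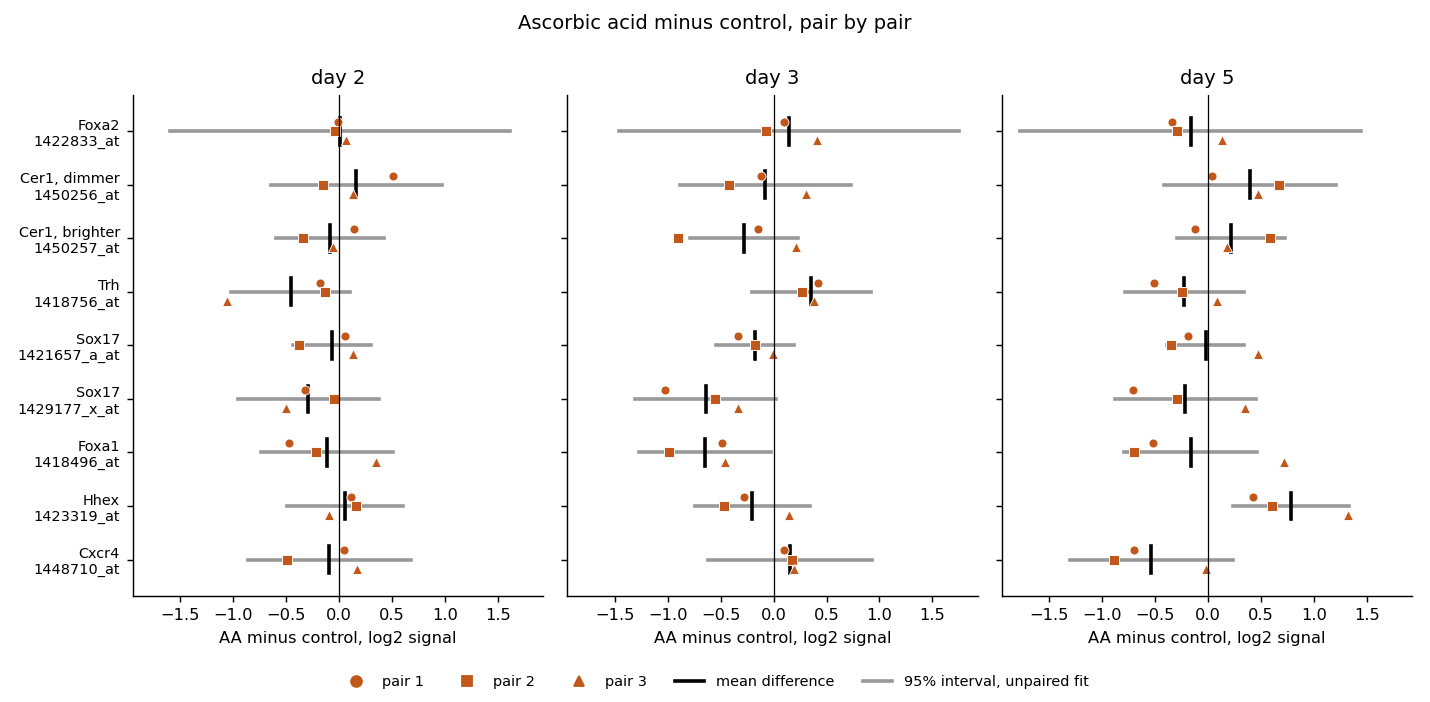
Ascorbic acid minus control in log2 signal (horizontal axes) for each probe set (vertical axis) at days 2, 3 and 5. Points are the pairs of the same replicate number, black bars their mean and grey lines the 95% interval of the unpaired fit. Hhex at day 5 and Foxa1 at day 3 have intervals that leave out 0 before adjustment over all probe sets.

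At days 2 and 3 no member was called between arms. At day 2, 0 of 9 probe sets were called in either fit (0.00444% of all probe sets were called unpaired and 1.64% paired), and at day 3 again 0 of 9 (0.00222% and 0.091%). At an unadjusted p under 0.05 in the unpaired fit, 0 of 9 passed at day 2. At day 3 the count was 1 of 9 (Foxa1) and at day 5 it was 1 of 9 (Hhex). Of all 45037 probe sets, 3164 passed at day 2, 698 at day 3 and 1443 at day 5 in this fit. In the paired fit the counts were 1, 3 and 3 of 9, beside 6888, 1814 and 3212 of all 45037 probe sets. Foxa1 at day 3 had 6.54, 6.64 and 6.26 with ascorbic acid and 7.03, 7.63 and 6.72 in control, without overlap, and its difference of -0.65 ± 0.30 was not called (adjusted p = 1, and 0.765 in the paired fit). The x_at probe set of Sox17 did not overlap at day 2, with -0.29 ± 0.32 (adjusted p = 0.863). The share of all probe sets without overlap between arms was not counted on these days either. Foxa2 at day 3 differed by 0.15 ± 0.77 and Trh by 0.36 ± 0.27, both not called.

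Averaged over the 3 days, 0 of 9 probe sets were called in either fit, against 0.0155% of all probe sets unpaired and 1.06% paired. The x_at probe set of Sox17 had the largest average difference, -0.38 ± 0.18, lower with ascorbic acid in 8 of 9 pairs (adjusted p = 0.999, and 0.0817 in the paired fit). The a_at probe set of the same gene averaged -0.09 ± 0.10 and was lower in 6 of 9 pairs. Foxa1 was lower in 7 of 9 pairs and Hhex higher in 6 of 9. limma's F test of whether the difference between arms changed with the day called 0 of 9 probe sets and 0.00666% of all, with an adjusted p of 1 for Hhex.

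Of 14 blood and vessel markers, 2 were called higher at day 5 with ascorbic acid than in control in the unpaired fit (Tal1 and Gata1, transcription factors of blood) and 9 in the paired fit. Among those called in neither fit, Emcn had means of 4.99 with ascorbic acid and 4.95 in control, and Runx1 had 7.84 with ascorbic acid and 7.70 in control. The mean level of the 14 per array was 7.49 to 8.60 with ascorbic acid and 6.68 to 7.63 in control. Tal1 had 9.67, 9.54 and 9.54 with ascorbic acid and 8.26, 8.14 and 7.45 in control (1.63 ± 0.15, adjusted p = 2.76e-05). Hbb-bh1, an embryonic globin, had 13.30, 12.99 and 10.97 with ascorbic acid and 10.02, 11.16 and 7.81 in control, and its difference of 2.76 ± 0.58 was called in the paired fit only (adjusted p = 0.124, and 1.04e-05 paired). Hbb-bh1 was also the gene whose signal was most like that of Hhex over the 21 arrays (r = 0.966), before Ptpre and Peg12 (both r = 0.958). Replicate 3 was the lowest of its arm for Hhex and for Hbb-bh1 alike, which is already part of their r over the same arrays. Sox7 and Sox18, the closest relatives of Sox17 and factors of endothelium, were called in the paired fit (0.97, adjusted p = 0.00132, for Sox7), whereas Sox17 itself was not. Whether these markers have a part in the Hhex difference was not tested.

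**Figure D5:**
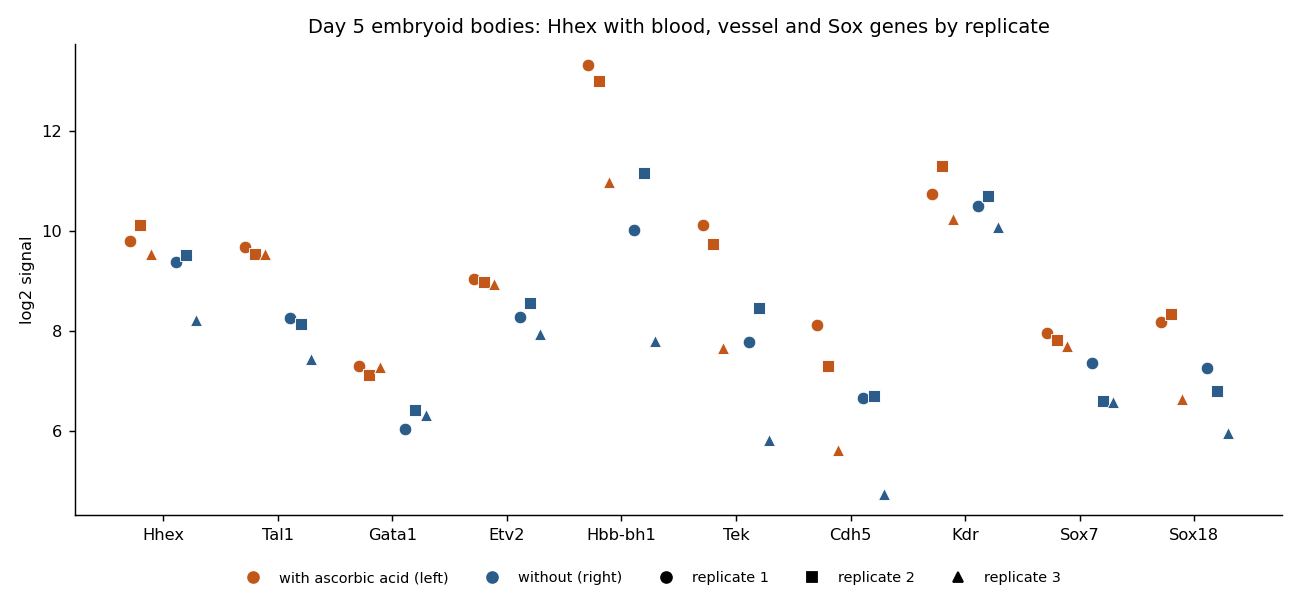
Log2 signal (vertical axis) of Hhex and 9 blood, vessel and Sox genes (horizontal axis) on the 6 day 5 arrays, with ascorbic acid on the left and control on the right of each gene. Shapes give the replicate number. Hhex, Tal1, Gata1, Etv2 and Sox7 do not overlap between arms, and Hbb-bh1, Tek, Cdh5, Kdr and Sox18 do. The share of all probe sets without overlap was not counted.

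The day 5 rise was shared by other genes listed for definitive endoderm. Of 13 measured genes of that list, 1 rose from day 2 to day 3 with ascorbic acid (Krt8, a keratin) and 0 in control. From day 3 to day 5, 11 rose and 0 fell with ascorbic acid, and 10 rose and 0 fell in control. Of all probe sets, 6.73% rose with ascorbic acid and 6.76% in control over this step. Spink1, a protease inhibitor, rose by 5.10 ± 0.48 with ascorbic acid (34.3-fold, adjusted p = 2.5e-07) and by 5.29 ± 0.48 in control (39-fold, adjusted p = 1.45e-07). Gata6, a zinc-finger factor of endoderm and heart, rose by 3.09 ± 0.24 with ascorbic acid and by 2.79 ± 0.24 in control (adjusted p = 1.37e-08 and 5.86e-08). Gata6 is also in the list of extraembryonic endoderm markers, so the counts of these lists are not separate. Between arms at day 5, 0 of the 13 were called in the unpaired fit and 1 rose in the paired fit, Pyy (1.70, adjusted p = 0.0109). Pyy had 7.57, 9.36 and 6.54 with ascorbic acid and 6.58, 6.03 and 5.75 in control. The rise from day 3 to day 5 was not confined to endoderm genes. Of the 14 blood and vessel markers, 12 rose and 0 fell over that step with ascorbic acid, and 4 rose and 0 fell in control.

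Of 10 genes of organs that grow from the gut, 4 rose with ascorbic acid by day 5 (Cdx2, Ttr, Prox1 and Hnf4a) and 3 rose in control (Cdx2, Ttr and Prox1), and 0 fell in either arm. Cdx2, the hindgut homeobox factor, rose by 2.27 ± 0.32 with ascorbic acid and by 2.70 ± 0.32 in control (adjusted p = 3.87e-05 and 4.88e-06).

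Extraembryonic endoderm expresses several of the 7 genes. Of 22 of its markers, 11 rose and 1 fell from day 3 to day 5 with ascorbic acid, and 10 rose and 0 fell in control. The called genes with the largest differences were Sox7, Gata6, Col4a1 and Col4a2 with ascorbic acid, and Gata6, Col4a1, Sparc and Sox7 in control. Their mean level per array at day 5 was 7.59 to 8.00 with ascorbic acid and 7.51 to 7.95 in control, and at day 3 it was 6.78 to 6.87 with ascorbic acid and 6.81 to 6.91 in control. Of the secreted products of visceral endoderm, 5 had nearly level signals: Afp had group means of 5.09 to 5.73 over all 7 groups, Apoa1 6.55 to 6.95, Apoa2 6.48 to 6.73, Apoa4 5.81 to 6.10 and Apob 6.64 to 6.97. Ttr, another product of visceral endoderm that is also made by liver and stood in the list of gut organs, rose from day 3 to day 5 by 1.62 ± 0.45 with ascorbic acid (adjusted p = 0.02) and by 1.5 ± 0.45 in control (adjusted p = 0.0307). Sox7, of parietal endoderm and vessels, had means of 7.83 with ascorbic acid and 6.86 in control at day 5 and of 4.65 to 5.43 before. No marker of this list was called between arms in the unpaired fit and 2 were in the paired fit (Sox7 and Thbd), and their part in the levels of the 7 genes was not tested. Node, notochord and anterior visceral endoderm markers gave 2 rises and 2 falls of 9 over the same step with ascorbic acid, and 1 rise and 2 falls in control.

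Over the 21 arrays, the probe sets of Sox17, Foxa1, Hhex and Cxcr4 had r from 0.798 (Hhex with Cxcr4) to 0.956 (Sox17 x_at with Foxa1) between genes. Foxa2 and the dimmer probe set of Cer1 had r of 0.9. With the probe sets of Sox17, Foxa1, Hhex and Cxcr4, this Cer1 probe set had r from 0.599 to 0.748, Foxa2 from 0.293 to 0.538 and Trh from -0.581 to -0.41. Trh had r of 0.388 with Foxa2 and 0.0833 with the dimmer probe set of Cer1. These values describe 21 arrays that share 7 groups and follow the day of culture. The genes most like each remaining member were Cited1 (r = 0.983), Pmp22 and Nrp1 for Sox17, Ctdspl (r = 0.96), Zfp672 and Tax1bp3 for Foxa1, Evx1 (r = 0.904) and Tgfbr3 after Lhx1 for Foxa2, Il17rd (r = 0.959), Nefl and Pmepa1 for Trh, and Itga8 (r = 0.689) before Lhx1 and Foxa2 for the brighter probe set of Cer1.

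By the order of group means, Sox17, Foxa1, Hhex and Cxcr4 had day 5 above all other groups. For Cxcr4 and both Sox17 probe sets, no day 5 array overlapped any earlier array, and the arms at day 5 overlapped. For Hhex the day 5 control group came next below the ascorbic acid group, and its lowest array, 8.22, was above the highest earlier one, 8.04. For Foxa2 the day 3 and day 5 groups overlapped in either arm, through replicate 3 of day 3. For Trh the day 5 groups were the lowest of the 7, overlapping with the lowest day 2 array, 8.03 with ascorbic acid.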

How the data were processed

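Total RNA (100 ng per sample) was labelled with biotin and hybridised to an Affymetrix mouse array, and 21 arrays in 7 groups of 3 were analysed. The deposited values are log2 signals made by the authors with RMA, per the submitters' processing notes. RMA subtracts a modelled background, puts all arrays on one quantile distribution and condenses each probe set to 1 value, so small differences of dim genes are compressed. The sources used here give no version of it and no build for the array. Array medians ran from 6.05 to 6.19, and arrays of 1 group had r of 0.972 to 0.995. Arrays give no read depth, so their number limits the precision.

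All 45037 probe sets other than the 64 controls were fitted in R 4.3.3 with limma 3.58.1 (lmFit, eBayes with an intensity trend) as 7 group means, and p-values were adjusted by Benjamini-Hochberg over all of them at a threshold of 0.05. The fit was tested on simulated data. Genes were named from the platform annotation, and the symbols of all 9 member probe sets matched RefSeq by Entrez identifier. A gene with several probe sets was represented in lists by its brightest. Arrays with and without ascorbic acid that share a day and replicate number deviated together from their group means (r from 0.178 to 0.679 in 9 of 9 pairs, all above 0.1), so the numbers, taken from the labels, were used to pair the arrays. The labels do not say that arrays of the same number share a culture start, so the pairing is inferred from these same data. A paired fit with these 9 blocks on 18 arrays is given beside a result where it changes a call.

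The text names all probe sets of the 7 genes in every comparison, of each gene list up to 4 called genes with the largest differences, and the 3 genes most like each member by Pearson r among genes whose group means span at least 1. Tek, Cdh5, Kdr, Sox18, Etv2, Emcn, Runx1, Thbd and Pyy, Fgf8 and Lhx1 at day 3, and the flat visceral endoderm and Trh receptor genes were named after their values were seen. The members and lists were chosen with earlier results of these data known.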

Additional observations from a re-analysis of the deposited data

How the results depend on the processing

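Of 2563 member differences recomputed under other settings, 2505 kept their side of the threshold, 36 lost a call and 22 gained one. No called difference changed sign, and 69 differences with no call did. In the gene counts that follow, each gene stands by its brightest probe set, so the call of the dimmer Cer1 probe set is not counted. With ascorbic acid the count of member genes called from day 2 to day 3 was 2, and it was 1 with renewed quantile normalisation, 1 without the intensity trend, and from 1 to 2 when leaving out 1 array, each time through Foxa2. In control the count was 1, and it was 2 with 1 probe set a gene, 2 with dim probe sets removed, 2 without replicate 3 of day 3 in both arms and 3 with a replicate block over all groups (Trh, Foxa2 and Foxa1), and from 0 to 2 when leaving out 1 array. From day 0 to day 2 with ascorbic acid it was 0, and from 0 to 1 when leaving out 1 array (Trh without day 0 replicate 1). Between arms at day 5 it was 0, and 1 with the 9 pairs as a replicate block (Hhex), 1 in that paired fit without pair 1 (Hhex) and 1 without pair 3 (Cxcr4). The paired fit changed no other call of a member. Settings that left out replicate 3 of a day in both arms, or a day 5 pair, were chosen after seeing the data.

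Counts over all probe sets moved more. Between arms they were 2 at day 2 (0 to 737 over the alternatives), 1 at day 3 (0 to 41), 31 at day 5 (8 to 289) and 7 on average (5 to 479). For the steps with ascorbic acid they were 4383 from day 0 to day 2 (1209 to 6468), 1324 to day 3 (275 to 2639) and 5869 to day 5 (3298 to 6991), and in control 3835 (265 to 6710), 1508 (234 to 2520) and 5949 (3333 to 7105). The cause was not tested. With 3 arrays a group, the number of arrays limits the precision, and the split of Foxa2 and Cer1 by replicate at day 3 widens their unpaired intervals.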

Other observations

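Pluripotency genes gave the members' course a second time scale. Of 10 such genes, 6 fell from day 0 to day 2 in each arm and 0 rose, and from day 3 to day 5, 5 fell and 2 rose in each arm. Nanog, a homeobox factor of the pluripotent epiblast, had a mean of 11.48 in stem cells. At day 2 its mean was 9.58 with ascorbic acid and 9.59 in control. From day 2 to day 3, when Foxa2 and Trh were high, Nanog rose by 1.91 ± 0.35 with ascorbic acid (adjusted p = 0.00495). In control it rose by 1.94 ± 0.35 (adjusted p = 0.00475). The day 3 means, 11.48 with ascorbic acid and 11.53 in control, were thus a return to the stem cell level. By day 5 it fell by 5.58 ± 0.35 with ascorbic acid and fell by 5.63 ± 0.35 in control. Of 10 nascent mesoderm markers, 2 rose to day 3 with ascorbic acid (Fgf8 and Evx1) and 3 in control (Fgf8, Mixl1 and Evx1). Fgf8, a streak ligand, rose by 3.48 ± 0.36 with ascorbic acid and by 3.62 ± 0.36 in control, and by day 5 it fell by 3.78 ± 0.36 with ascorbic acid and fell by 4.17 ± 0.36 in control.

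Of 9 measured neuroectoderm markers, Zic1, a zinc-finger factor, was the 1 called between arms at day 5 in the unpaired fit, with means of 3.61 with ascorbic acid and 5.43 in control (-1.82 ± 0.31, adjusted p = 0.018). Its mean with ascorbic acid is below 5, so no fold is given.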
